A study of Homo sapiens with 6 samples.

Results

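The 10 genes described here encode the MYC and MAX network of transcription factors, namely MYC, MYCN, MAX, MXD1, MXD3, MXD4, MXI1, MNT, MLX and MLXIPL. They were taken by symbol from the 20030 genes of the deposited count table, and all 10 passed the filter on low counts together with 12369 genes in all. The libraries came from HepG2, an established hepatoma cell line. HepG2 cells carrying a lentiviral control shRNA (sh-ctrl, 3 libraries) were compared with HepG2 cells in which a lentiviral shRNA against KIF11 lowered this mitotic kinesin (sh-KIF11, 3 libraries). Both groups therefore share the cell line and lentiviral delivery of an shRNA with puromycin selection, and the oligos that the study lists hold a single hairpin against KIF11. The labels number the libraries within each group but do not say that they came from separate cultures, so the p-values below measure the spread between these libraries, which may be technical.

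The factors of this network bind DNA as pairs. MYC and MYCN need MAX as a partner, and the MYC:MAX pair sits on the E-box CACGTG and raises transcription of genes for growth, ribosome production and metabolism. MXD1, MXD3, MXD4, MXI1 and MNT compete for the same MAX and, on the same E-box, recruit the SIN3 and histone deacetylase corepressor. MLX is a MAX-like protein whose main partners, MLXIPL (ChREBP) and MLXIP (MondoA), respond to sugar. In liver cells the MLX:MLXIPL pair is known for driving glycolytic and lipogenic genes through pairs of E-box-like motifs, and MXD1, MXD4 and MNT can bind MLX as well as MAX.

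The E-box itself was present in the promoters of 3 of the 9 members that have an entry among the RefSeq promoter windows (GRCh38.p14), each running from 250 bases before to 50 bases after a gene start. CACGTG, which reads the same on both strands, was found in 7.26% of all 35116 windows and in 3 of the 12 windows of members. For tested genes it was in 9.43% of windows and in 12.8% of the genes with a window. The stretches are shown because CACGTG is the letter sequence that the members' own proteins bind, and the 6 capitals mark it.
MLX, chr17:42567038-42567067, plus strand: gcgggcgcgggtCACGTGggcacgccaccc
MNT, chr17:2401236-2401265, minus strand: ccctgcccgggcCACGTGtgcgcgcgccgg
MXD4, chr4:2262330-2262359, minus strand: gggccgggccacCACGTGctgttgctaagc
Counted from the RefSeq start of each window, which differs from the GENCODE start of the gene positions given further on, the motif began 50 bases before the start in MLX, 193 bases before it in MNT and 238 bases before it in MXD4. The windows of MYCN, MAX, MXD1, MXD3, MXI1 and MLXIPL did not hold these letters, and MYC was not among the windows. Of these 3 genes MLX fell in sh-KIF11, whereas MXD4 and MNT did not pass the test. A match is a description of the letters and not evidence of binding.

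KIF11 was lower in every sh-KIF11 library, with 1448, 1478 and 1240 counts against 1976, 2088 and 2039 counts in sh-ctrl, a ratio of 0.594 in CPM (counts scaled to library size, here adjusted by the trimmed mean of M-values, TMM) and a log2 fold change of -0.75 (edgeR adjusted p = 4.22e-15). Libraries held 18167773 to 19583282 counts. Chi-square per degree of freedom over genes was 2.62 to 7.83 between libraries of a group and 80.2 to 97.8 between groups. Within groups, sh-ctrl replicate 3 gave the highest values, 7.83 and 6.06 with the other sh-ctrl libraries. The highest value of any other pair within a group was 3.4. The hepatocyte markers were high in all libraries, and their summed level fell from 35670 to 37380 CPM in sh-ctrl to 15950 to 17150 CPM in sh-KIF11. Of the 13, 12 were lower (92.3%, against 34.7% of all tested genes). Of 7 fibroblast markers 2 were at 0 in all libraries and the sum was at most 3.932 CPM; the 4 endothelial markers summed to 3.157 to 4.982 CPM. Of the 6 leukocyte markers PTPRC and CD3E had at most 3 counts in any library, whereas LYZ, which codes for lysozyme, fell from 2612 to 510.7 CPM. The part of these differences in the results below was not tested.

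With edgeR's quasi-likelihood test and Benjamini-Hochberg adjustment over the 12369 genes tested, 8 of the 10 network members differed between the groups. MAX, MXD1 and MXI1 rose, and MYC, MYCN, MXD3, MLX and MLXIPL fell. MXD4 and MNT did not pass the test. The share called among all tested genes was 69.1%, with 34.4% higher and 34.7% lower, so that 3 members higher and 5 lower are to be read against a table in which most genes changed. For 8 members no library of sh-KIF11 reached the range of sh-ctrl, which was so for 71.2% of all tested genes. The median log2 fold change of the 10 members was -0.12 and that of all tested genes 0.004. The 2 largest differences among the members were those of MYCN, which lay past all but 7.75% of the tested genes in absolute size, and MXD3, past all but 17.4%.

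**Figure D1:**
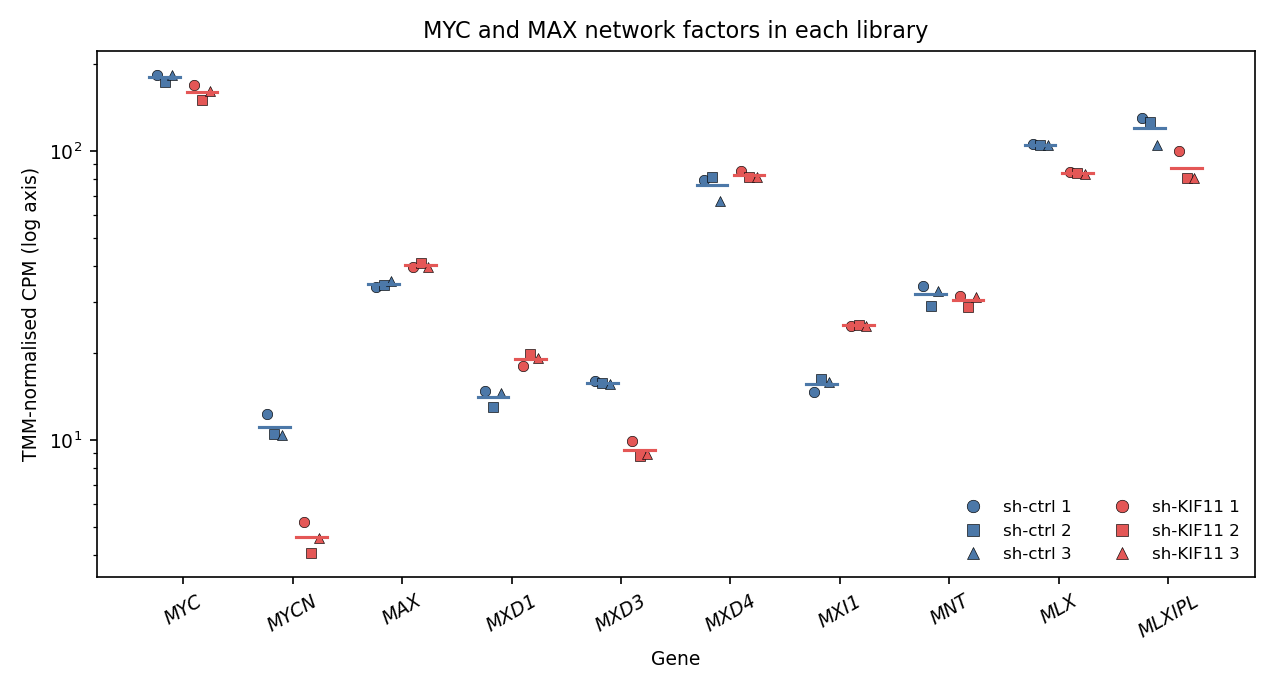
TMM-normalised CPM (log axis) of the 10 network members in each of the 6 libraries; points are libraries, with their number given by shape, and horizontal lines are group means. The sh-KIF11 points of MYCN lie at 4.056 to 5.181 CPM and those of sh-ctrl at 10.36 to 12.27 CPM, whereas the groups overlap for MXD4 and MNT.

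MYC was the most abundant member in both groups and changed little. It was measured at 184.1, 173 and 184.1 CPM in sh-ctrl and at 169.2, 150.4 and 161.4 CPM in sh-KIF11. All sh-KIF11 libraries lay under all sh-ctrl libraries, although the lowest of sh-ctrl and the highest of sh-KIF11 were close to each other. Group means were 180.4 ± 6.37 CPM for sh-ctrl and 160.3 ± 9.43 CPM for sh-KIF11 (SD, n = 3 each). This gave a log2 fold change of -0.17 (SE 0.0517, edgeR adjusted p = 0.00368). This call depended on how the libraries were scaled. With library totals alone, which shift the median gene by 0.235, the log2 fold change of MYC was 0.06 (edgeR adjusted p = 0.294), and in limma on log2(FPKM + 1), where FPKM is the level per length deposited by the authors, it was -0.006 (adjusted p = 0.933). Without sh-KIF11 replicate 2, which had the lowest MYC value, it was -0.13 (edgeR adjusted p = 0.0663). The gene lies at chr8:127735434-127741434 on the plus strand (GRCh38, GENCODE 29), where no other annotated gene overlaps it. In these bulk libraries a change in the share of cells in some state and a change in the RNA of each cell cannot be told apart.

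MYCN, the MYC relative best known from neural tissue and neuroblastoma, was the member that fell most. The control libraries held 12.27, 10.52 and 10.36 CPM, and the sh-KIF11 libraries 5.181, 4.056 and 4.561 CPM. The groups were well apart, with the highest sh-KIF11 value under the lowest of sh-ctrl. Mean levels were 11.05 ± 1.06 CPM and 4.6 ± 0.563 CPM (SD, n = 3 each), and the log2 fold change was -1.27 (SE 0.135, edgeR adjusted p = 6.43e-11). The raw counts behind these values were 219, 190 and 175 for the control and 104, 84 and 90 for the knockdown. MYCN lies at chr2:15940564-15947007 on the plus strand and overlaps the antisense gene MYCNOS. The ratio of MYCN to MYC in FPKM, which does not depend on the scaling of a library, went from 0.0932 ± 0.00488 to 0.0438 ± 0.00478 (SD, n = 3 each). No library of one group reached the other, and the exact two-sided permutation p was 0.1, the smallest that 3 against 3 libraries allow.

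MAX, the shared partner, was modestly higher in the knockdown cells. It was measured at 33.74, 34.4 and 35.48 CPM in sh-ctrl and at 39.86, 41.05 and 39.74 CPM in sh-KIF11. The sh-KIF11 libraries were all above the sh-ctrl libraries, and the spread within each group was small. The log2 fold change was 0.22 (SE 0.0715, edgeR adjusted p = 0.0064), and MAX stayed called higher under all 15 alternatives, with values between 0.20 and 0.45. In FPKM the MYC to MAX ratio fell from 4.82, 4.3 and 4.44 in the sh-ctrl libraries to 3.73, 3.01 and 3.46 in the sh-KIF11 libraries. MAX lies at chr14:65006174-65102695 on the minus strand and overlaps FNTB and CHURC1-FNTB on the other strand. FNTB itself changed the other way, with a log2 fold change of -0.91. The kit that made these libraries keeps the strand, but whether the counting used it is not given in the sources used here.

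**Figure D2:**
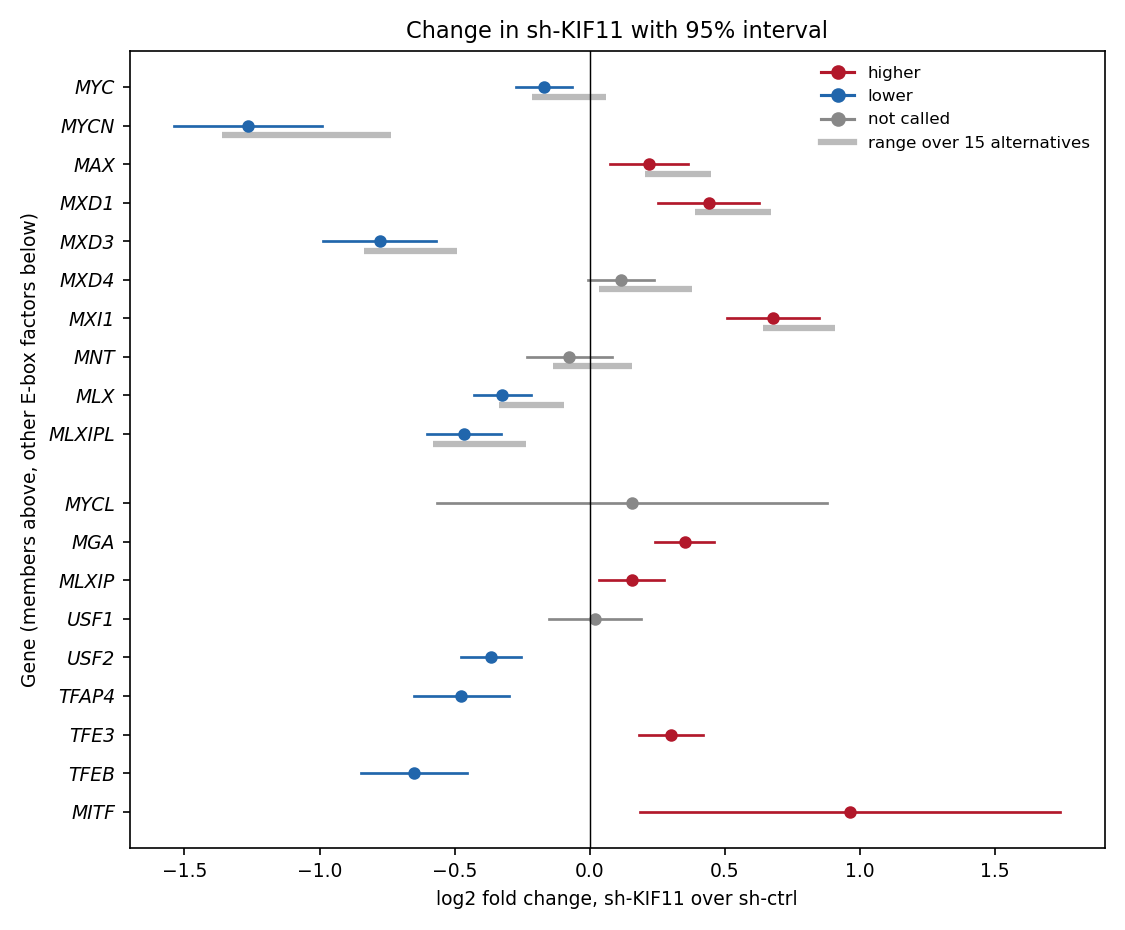
Log2 fold change of sh-KIF11 over sh-ctrl from edgeR with its 95% interval for the 10 members (above) and for 9 other E-box factors that passed the filter (below); grey bars under the members span the values of the 15 alternative settings. The grey bar crosses 0 for MYC and MNT, and stays on 1 side of it for the other 8 members.

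The MXD family and MXI1, which hold MAX in repressing pairs, did not move together. MXI1 and MXD1 rose, MXD3 fell, and MXD4 did not pass the test. MXI1 was measured at 14.63, 16.28 and 15.81 CPM in sh-ctrl and at 24.86, 25.06 and 24.89 CPM in sh-KIF11. The sh-KIF11 values of MXI1 were nearly equal to each other and lay far above all sh-ctrl values. Its log2 fold change was 0.68 (SE 0.0849, edgeR adjusted p = 3.24e-09), the largest rise among the 10 members. MXI1 lies at chr10:110207605-110287365 on the plus strand, where an antisense gene and a processed pseudogene overlap it.

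MXD1, which is known to accumulate when cells leave the cycle and differentiate, was at 14.74, 12.96 and 14.51 CPM in sh-ctrl and at 18.08, 19.9 and 19.26 CPM in sh-KIF11. All of its sh-KIF11 values were higher than all of its sh-ctrl values. The log2 fold change was 0.44 (SE 0.0925, edgeR adjusted p = 5.84e-05). MXD1 lies at chr2:69897688-69942945 on the plus strand and overlaps SNRNP27 on the same strand, whose log2 fold change was 0.13 and did not pass the test.

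MXD3, the family member known for being expressed in cycling cells around S phase, went the other way. The control libraries held 15.97, 15.73 and 15.64 CPM, and the sh-KIF11 libraries 9.914, 8.789 and 8.92 CPM. The sh-ctrl libraries were close to each other and all of them lay above sh-KIF11. The log2 fold change was -0.78 (SE 0.103, edgeR adjusted p = 1.31e-08). The MXD1 to MXD3 ratio in FPKM went from 0.878, 0.836 and 0.911 in sh-ctrl to 1.86, 2.32 and 2.27 in sh-KIF11. MXD3 lies at chr5:177301461-177312757 on the minus strand and overlaps PRELID1 on the other strand, which also fell with a log2 fold change of -0.88, and RAB24 on the same strand at -0.13, which did not pass the test. Reads from the shared parts of PRELID1 and MXD3 are an uncertainty of the MXD3 value.

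MXD4 and MNT were the members without a call. MXD4 was at 79.75, 81.47 and 67.28 CPM in sh-ctrl and at 85.49, 81.32 and 81.09 CPM in sh-KIF11. The groups overlapped because sh-ctrl replicate 2 reached the lower sh-KIF11 libraries, and sh-ctrl replicate 3 stood under all others. The log2 fold change was 0.12 with a 95% interval of -0.01 to 0.24 (edgeR adjusted p = 0.0858), and it was called higher without sh-ctrl replicate 1 (0.15, adjusted p = 0.0413) or without sh-ctrl replicate 2 (0.17, adjusted p = 0.0343), in fits that keep sh-ctrl replicate 3. MNT, the broadly expressed antagonist of MYC, was at 34.24, 29.13 and 32.87 CPM in sh-ctrl and at 31.39, 28.78 and 31.22 CPM in sh-KIF11. The groups overlapped, and the log2 fold change of -0.075 had a 95% interval of -0.23 to 0.08 (edgeR adjusted p = 0.398), so a change of MNT was not detectable within these bounds. MXD4 lies at chr4:2247432-2262294 and MNT at chr17:2384060-2401118, both on the minus strand.

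**Figure D3:**
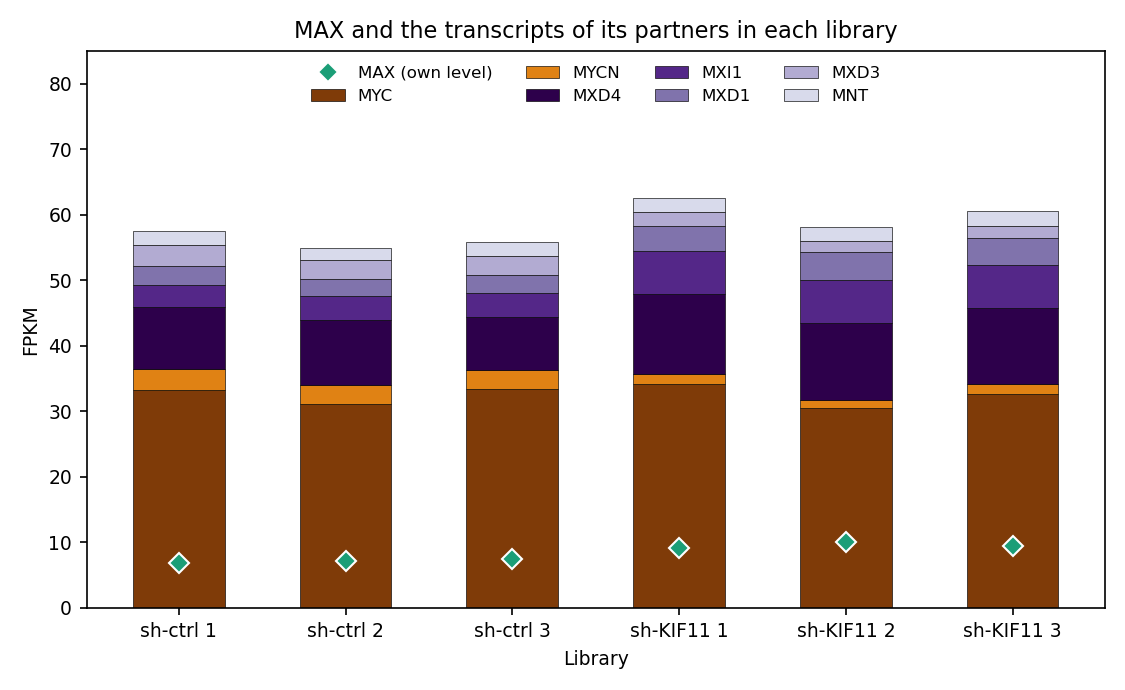
Stacked FPKM of the MAX partners MYC, MYCN, MXD4, MXI1, MXD1, MXD3 and MNT in each library, starting at 0, with the FPKM of MAX itself as a diamond. The MYC segments are of similar height in the 6 libraries, while the purple segments of the repressing partners sum to 19.62 to 21.01 FPKM in sh-ctrl and to 26.32 to 26.89 FPKM in sh-KIF11.

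Summed per library in FPKM, which allows levels of different genes to be added, the repressing partners made up more of the transcripts of the MAX partners among the members in sh-KIF11. The summed level of MXD1, MXD3, MXD4, MXI1 and MNT was 21.01, 21 and 19.62 FPKM in sh-ctrl and 26.89, 26.41 and 26.32 FPKM in sh-KIF11. The sum of MYC and MYCN was 36.52, 33.95 and 36.26 FPKM in sh-ctrl and 35.71, 31.64 and 34.17 FPKM in sh-KIF11, and here the groups overlapped. The ratio of the repressing sum to the MYC sum, free of library scaling, was 0.5753, 0.6184 and 0.5411 in the control libraries and 0.7531, 0.8348 and 0.7701 in the knockdown libraries. Every sh-KIF11 library was above every sh-ctrl library in this ratio. MXD4 was the largest repressing partner by level, at 9.13 ± 0.934 FPKM in sh-ctrl and 11.86 ± 0.341 FPKM in sh-KIF11 (SD, n = 3 each). Part of the rise in the repressing sum thus came from MXD4, which had no call and a ratio of 1.085 in TMM-scaled CPM. With TMM scaling the rise of the repressing sum was smaller, as given in the last section. MAX amounted to 12.85 ± 0.755% of the summed level of these partners, MGA not included, in sh-ctrl and 15.87 ± 1.42% in sh-KIF11. These are sums of transcripts, given with no test, and say nothing of protein amounts.

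In sh-ctrl the order of the levels per length ran MYC, MLX, MLXIPL, MXD4, MAX, MXI1, MXD3, MYCN, MXD1 and MNT, from a median of 33.3 FPKM for MYC to 2.12 FPKM for MNT. Of neighbours in this order, MXD3 and MYCN were the only pair whose libraries overlapped. In sh-KIF11 the order ran MYC, MLX, MLXIPL, MXD4, MAX, MXI1, MXD1, MNT, MXD3 and MYCN, with MLXIPL and MXD4 overlapping and likewise MNT and MXD3. MYCN thus went from the eighth place, at a median of 2.95 FPKM, to the last place, at 1.5 FPKM. The 6 most abundant members kept their order.

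**Figure D4:**
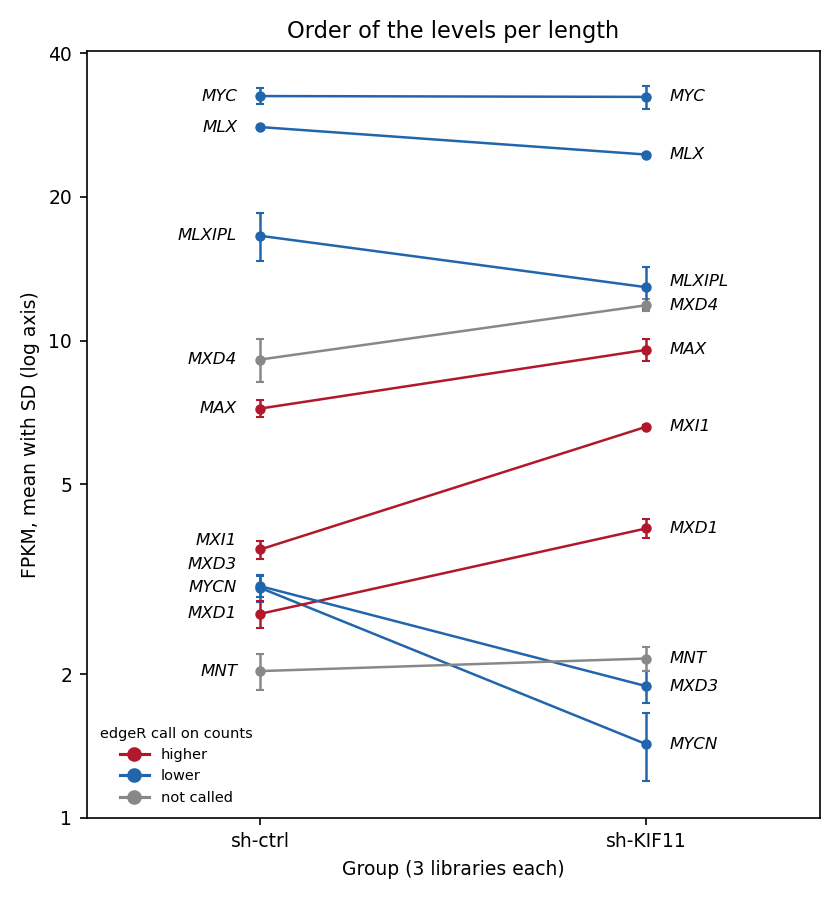
FPKM (log axis) of each member in sh-ctrl and sh-KIF11, as means of 3 libraries with SD bars; colour gives the edgeR call made on counts. The lines of MXD1 and MXI1 rise, those of MXD3 and MYCN fall below MNT, and MYC stays at 32.54 and 32.41 FPKM on this scale.

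MLX and its partner MLXIPL, the sugar-responsive arm of the network, both fell. MLX was at 105.6, 105.1 and 105.1 CPM in sh-ctrl and at 84.69, 83.93 and 83.68 CPM in sh-KIF11. The libraries of each group were almost equal and the groups were well apart. The log2 fold change was -0.32 (SE 0.0521, edgeR adjusted p = 7.03e-07), and with library totals alone it was -0.09 and no longer passed the test (adjusted p = 0.105). MLX lies at chr17:42567068-42573239 on the plus strand and overlaps PSMC3IP on the other strand, which had a log2 fold change of -0.02.

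MLXIPL, the ChREBP factor of hepatocytes, was at 130.3, 126.7 and 105.2 CPM in sh-ctrl and at 100.5, 80.79 and 81.04 CPM in sh-KIF11. The groups did not overlap, but sh-ctrl replicate 3 was low and sh-KIF11 replicate 1 was high for their groups, which left a narrow gap between them. The log2 fold change was -0.47 (SE 0.0676, edgeR adjusted p = 9.03e-08), and it remained between -0.58 and -0.24 and called under all 15 alternatives. MLXIPL lies at chr7:73593194-73624543 on the minus strand. Its fall ran beside that of the hepatocyte markers, whose list had a median log2 fold change of -1.24, and the part of that difference in the MLXIPL value was not tested. The MLXIPL to MLX ratio in FPKM overlapped between the groups, at 0.514 to 0.634 in sh-ctrl and 0.492 to 0.582 in sh-KIF11. In contrast, the ratio of MLXIPL to the related MLXIP was 2.39 to 2.68 in sh-ctrl and 1.42 to 1.79 in sh-KIF11, without overlap (exact two-sided permutation p = 0.1).

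Other factors that bind E-boxes or share partners with the members were also mixed. Of the 9 that passed the filter 4 rose (44.4%, against 34.4% of all tested genes), 3 fell (33.3%, against 34.7%) and 2 did not pass the test. Their median log2 fold change of 0.155 was 0.014 without sh-ctrl replicate 1, 0.066 without sh-KIF11 replicate 2, 0.088 without sh-ctrl replicate 3 and 0.385 with library totals alone. MGA, a large repressing partner of MAX, rose from 83.23 ± 3.15 to 106.2 ± 2.04 CPM (SD, n = 3 each; log2 fold change 0.35, edgeR adjusted p = 2.33e-07). MLXIP, the MondoA partner of MLX, rose by a log2 fold change of 0.15 (edgeR adjusted p = 0.0185) although the sh-KIF11 libraries overlapped those of sh-ctrl. TFE3 rose by 0.30, whereas TFEB, a lysosomal regulator of the same family, fell by 0.65 on the log2 scale. MITF rose by 0.96 from a mean of only 0.534 CPM to 1.04 CPM. USF2 fell by 0.37 and TFAP4, an E-box factor induced by MYC, fell by 0.47 on the log2 scale. USF1 had a log2 fold change of 0.02 (adjusted p = 0.848) and MYCL one of 0.16 at under 1 CPM (adjusted p = 0.713). TFEC was left out by the filter on low counts. With DESeq2, 2 factors of this list were called higher.

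Among genes for the proteins that MYC recruits to its targets, and for its partner MIZ1, more fell than rose with TMM scaling. The counts depended on the scaling, as did those of all tested genes. Of 17 tested, 9 fell (52.9%, against 34.7% of all tested genes), 3 rose (17.6%, against 34.4%) and 5 did not pass the test. With library totals alone 2 fell and 8 rose, in a fit where 2378 of the 12369 tested genes fell and 6619 rose. RUVBL2, an ATPase of chromatin remodelling complexes, fell from 162.8 ± 2.68 to 126.7 ± 1.24 CPM (SD, n = 3 each; log2 fold change -0.36, edgeR adjusted p = 2.54e-08). WDR5, a subunit of histone methyltransferase complexes, fell by 0.33 on the log2 scale. BPTF rose by 0.40, the elongation kinase gene CDK9 by 0.28 and the acetyltransferase gene KAT2A by 0.26. The median log2 fold change of the list was -0.156, which became -0.094 without sh-ctrl replicate 1, 0.075 with library totals alone and 0.013 in limma on log2(FPKM + 1). The median of all tested genes was 0.004 in the main fit, 0.235 with totals and 0.047 in that limma fit, above the list each time.

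The SIN3 and histone deacetylase corepressor that MXD, MXI1 and MNT recruit was likewise divided, with 5 of 14 genes higher (35.7%, against 34.4% of all tested genes), 7 lower (50%, against 34.7%) and 2 not called. SAP30, a bridging subunit of the SIN3 complex, fell from 18.47 ± 0.827 to 8.24 ± 0.622 CPM (SD, n = 3 each; log2 fold change -1.16, edgeR adjusted p = 3.31e-13). ING1 and BRMS1 fell by 0.56 and 0.38 on the log2 scale. ARID4A and its paralog ARID4B rose by 0.73 and 0.64 and SUDS3 by 0.29. The median of -0.09 became 0.143 with library totals alone and 0.055 in limma on log2(FPKM + 1). That of all tested genes was 0.004 in the main fit, 0.235 with totals and 0.047 in that limma fit. Without sh-KIF11 replicate 1, 3 genes were called higher.

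Among genes that act on the stability of the MYC protein, more were also lower than higher with TMM scaling, and the counts depended on the scaling. Of 21 tested, 10 were lower (47.6%, against 34.7% of all tested genes), 3 higher (14.3%, against 34.4%) and 8 not called. With library totals alone 4 were lower and 11 higher, in a fit where 2378 of the 12369 tested genes were lower and 6619 higher. In limma on log2(FPKM + 1) 6 were lower and 7 higher, against 2489 lower and 5788 higher among all genes of that fit. FBXW7, the ubiquitin ligase subunit that marks phosphorylated MYC for destruction, rose from 18.7 ± 2.17 to 30.69 ± 0.383 CPM (SD, n = 3 each; log2 fold change 0.71, edgeR adjusted p = 7.1e-10). GSK3B, the kinase that prepares MYC for FBXW7, rose by 0.36. The other gene that rose was FBXO32, by 1.90 from a mean of 0.262 CPM. SKP2, another ligase subunit that acts on MYC, fell by 0.74 and AXIN1, a scaffold, by 0.66 on the log2 scale. PLK1, a mitotic kinase known to protect MYC proteins from FBXW7, fell from 333.7 ± 18.1 to 194.3 ± 0.214 CPM (SD, n = 3 each; log2 fold change -0.78, edgeR adjusted p = 1.39e-17). The median of -0.12 became 0.112 with library totals alone and 0.045 in limma on log2(FPKM + 1). That of all tested genes was 0.004 in the main fit, 0.235 with totals and 0.047 in that limma fit.

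The genes textbooks list as activated by MYC were mostly lower in sh-KIF11. Of 36 tested, 24 fell (66.7%, against 34.7% of all tested genes), 1 rose (2.78%, against 34.4%) and 11 did not pass the test, with a median log2 fold change of -0.33. LDHA, which makes lactate from pyruvate, fell from 1910 ± 149 to 803.8 ± 3.73 CPM (SD, n = 3 each; log2 fold change -1.25, edgeR adjusted p = 5.2e-24). ENO1, the glycolytic enolase, fell by 0.82 and FBL, the fibrillarin of the nucleolus, by 0.79 on the log2 scale. LDHA and ENO1 have processed pseudogenes, and reads shared with such copies are an uncertainty of their values. CCND2, which codes for cyclin D2, was the gene that rose, from 5.45 ± 0.483 to 38.07 ± 4.16 CPM (SD, n = 3 each; log2 fold change 2.81, edgeR adjusted p = 1.22e-25). Without sh-ctrl replicate 3 or without sh-KIF11 replicate 1, 2 genes of the list were called higher. The median was -0.140 in limma on log2(FPKM + 1). With library totals alone it was -0.097, and 17 genes were lower and 11 higher. In that fit 2378 of the 12369 tested genes were lower and 6619 higher. The list describes known targets and does not show that MYC caused these differences.

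The E-box was common in the promoters of this list, where 15 of the 36 windows held CACGTG, and the windows matched 28 of its 36 genes. LDHA and FBL are shown because they are among the genes of the list that fell most, and the 6 capitals mark CACGTG.
LDHA, chr11:18394366-18394395, plus strand: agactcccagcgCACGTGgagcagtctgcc
LDHA, chr11:18394464-18394493, plus strand: cagcccgactcaCACGTGggttcccgcacg
FBL, chr19:39846356-39846385, minus strand: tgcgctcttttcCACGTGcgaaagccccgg
In LDHA the motifs began 185 and 87 bases before the RefSeq start, and in FBL the motif began 6 bases after it. ENO1, which fell slightly more than FBL, had no CACGTG match in the windows searched. EIF4E, GNL3, PPAT and TERT held CACGTG and did not pass the test. Whether the motif goes with the fall was not tested. Among windows of genes tested here 9.43% held the motif. The windows of the 9 other E-box factors found in the table held none.

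Genes that MYC is known to repress, often through MIZ1, did not share a direction. Of 12 genes 10 were tested, of which 3 rose (30%, against 34.4% of all tested genes), 5 fell (50%, against 34.7%) and 2 did not pass the test. The cell cycle inhibitor CDKN2B rose from 1.73 ± 0.558 to 12.6 ± 1.56 CPM (SD, n = 3 each; log2 fold change 2.87, edgeR adjusted p = 2.51e-18). CDKN1A, the p21 inhibitor, rose from 171 ± 16.1 to 255.3 ± 14.3 CPM and GADD45A, a DNA damage response gene, by 0.70 on the log2 scale. CLU fell by 1.53, NDRG2 by 0.87 and NDRG1 by 0.87 on the log2 scale. CLU codes for the secreted chaperone clusterin, which is also abundant in liver. Over the genes tested the list had a median log2 fold change of -0.26, which was -0.135 without sh-ctrl replicate 1, -0.167 without sh-KIF11 replicate 3, -0.031 with library totals alone and -0.016 in limma on log2(FPKM + 1).

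The carbohydrate response genes, which the MLX pairs are known to activate, had the lowest median of the 7 lists of genes outside the members. Of 20 genes 17 were tested, of which 12 fell (70.6%, against 34.7% of all tested genes), 3 rose (17.6%, against 34.4%) and 2 did not pass the test. The median log2 fold change was -0.689, which was -0.459 with library totals alone and -0.229 in limma on log2(FPKM + 1). SCD, the fatty acid desaturase, fell from 3641 ± 126 to 1299 ± 61.9 CPM (SD, n = 3 each; log2 fold change -1.49, edgeR adjusted p = 4.29e-27). G6PC, a glucose-6-phosphatase, fell by 1.36 and KHK, ketohexokinase, by 1.12 on the log2 scale. The 3 genes that rose were ARRDC4 by 1.96, TXNIP by 0.94 and KLF10 by 0.89. TXNIP went from 49.43, 52.45 and 59.29 CPM in sh-ctrl to 100.3, 107.1 and 101.5 CPM in sh-KIF11, and ARRDC4 from 7.23, 6.536 and 8.588 CPM to 28.75, 28.35 and 29.8 CPM. TXNIP and ARRDC4 code for arrestin-domain proteins that restrain glucose uptake and are classical targets of the MLX:MLXIP pair. Of the 13 hepatocyte markers 12 fell beside this list (92.3%, against 34.7% of all tested genes), and the part of that difference was not tested.

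Promoter stretches of TXNIP and ARRDC4 are shown because these genes rose while the lipogenic targets fell. A pair of E-box-like motifs was searched on both strands as CACGNG followed after 5 bases by CNCGNG, and 0.501% of all windows held it. Some pairs also contain CACGTG, so the searches overlap. The capitals mark the motifs.
TXNIP, chr1:145996644-145996673, minus strand: gatgtgCACGAGggcagCACGAGcctccgg
ARRDC4, chr15:97960481-97960510, plus strand: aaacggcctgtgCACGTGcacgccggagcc
MXI1, chr10:110210155-110210184, plus strand: gccccgCGCGGGgcgggCCCGTGgcggcgt
The pair of TXNIP began 88 bases before the RefSeq start, and the CACGTG of ARRDC4 began 210 bases before it. MXI1, a member that rose, held a match to the pair on the other strand in 1 of its 3 windows, 70 bases before the RefSeq start of that window, which lies within the GENCODE gene. PKLR was the other carbohydrate response gene with the pair and the other with CACGTG, and it fell by 0.92 on the log2 scale. CACGTG was in 2 of the 21 windows of the carbohydrate response list (9.52%), near the 9.43% of windows of tested genes. The pair was also in 2 of these 21 windows, against 0.754% of windows of tested genes.

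**Figure D5:**
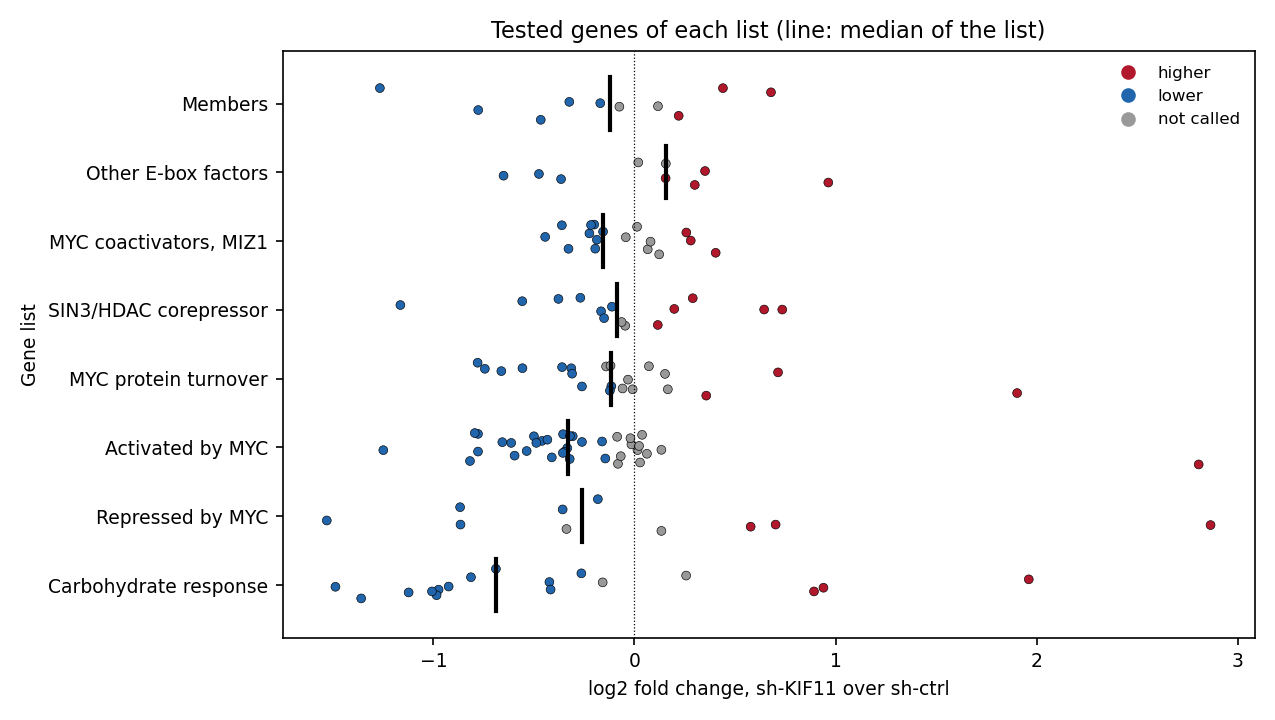
Log2 fold change of sh-KIF11 over sh-ctrl for every tested gene of the members and of 7 related lists; points are genes coloured by the edgeR call, vertical position within a list carries no meaning, and black lines are list medians. Points of the members spread to both sides of 0, those of the list activated by MYC lie mostly to its left with CCND2 far to the right, and the carbohydrate response list has a median of -0.69.

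By likeness of profile, measured as the Euclidean distance between log2 CPM values centred on their mean over the 6 libraries, the genes nearest to MYC were RIOX1 at a distance of 0.029, TMEM150A at 0.0365 and TDRD3 at 0.0401. Their log2 fold changes were -0.18, -0.19 and -0.18. The genes nearest to MYCN, the member with the largest difference, were CD320 at 0.115, FGFR4 at 0.178 and C1R at 0.18, with log2 fold changes of -1.21, -1.19 and -1.15. Among the 39 genes that the deposited annotation assigns to the bHLH family, 5 were members (MYC, MYCN, MAX, MNT and MXI1). Of that family 25 genes were tested, of which 9 rose and 10 fell, with 34.4% and 34.7% of all tested genes as the background.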

How the data were processed

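PolyA RNA of 6 HepG2 libraries was sequenced on an Illumina HiSeq instrument as 150 bp paired-end reads. The authors deposited read counts per gene and FPKM per gene. The submitters' processing notes list GRCh38 and hg38 as builds and, without roles, bcl2fastq 1.8.4, Trimmomatic, HISAT2 2.1.0, Cufflinks 2.2.1, HTSeq 0.9.1 and DESeq. The count columns named shRNA were taken as the sh-KIF11 libraries of the same number. Here the counts were filtered with filterByExpr, scaled by TMM (factors 0.922 to 0.926 in sh-ctrl, 1.08 to 1.09 in sh-KIF11) and tested with edgeR 4.0.16 (R 4.3.3, group as the only term, adjusted p threshold 0.05); SE is the log2 fold change over the root of its F. The biological coefficient of variation was 4.87%. Alternatives used limma 3.58.1 on log2(FPKM + 1) or log2(FPKM + 0.1), DESeq2 1.42.0, other scalings and filters, a replicate block and leaving out each library. On counts simulated with a log2 change of 1 in 198 of 12235 genes, edgeR recovered 97.5% of these with 6 others called. The recovery therefore does not bear on smaller differences such as that of MYC. Nor does it bear on the choice of scaling, because 69.1% of tested genes were called in the data. Levels of different genes were compared only in FPKM. Other named genes had a mean of at least 1 CPM and no overlap between groups. They were the up to 3 largest rises and falls of a list. The other E-box factors and the cell type markers PTPRC and CD3E were named whatever their level. PKLR, FBXO32, EIF4E, GNL3, PPAT, TERT and genes overlapping a member were named after their values were seen. A gene of the coactivator list that this rule would name is not reported here. The members and lists were chosen with earlier results of these data known.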

Additional observations from a re-analysis of the deposited data

How the results depend on the processing

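Among the members, MYCN, MAX, MXD1, MXD3, MXI1 and MLXIPL kept direction and call under all 15 alternatives, as did KIF11. MYC was -0.091 (edgeR adjusted p = 0.113) with upper-quartile scaling, 0.06 with library totals alone, and -0.006 and -0.007 in limma on log2(FPKM + 1) and log2(FPKM + 0.1). Leaving out 1 library gave MYC -0.21 to -0.13. MXD4 was called higher with upper-quartile scaling (0.20), library totals (0.35), at least 10 counts in every library (0.14), and both FPKM fits (0.35 and 0.38); leaving out 1 library gave 0.033 to 0.172. MNT was 0.004 with upper-quartile scaling, 0.16 with totals, and 0.06 and 0.085 in the FPKM fits, without a call. MLX was -0.094 with totals, and 3 members were then called lower. With totals every member moved up by nearly the same log2 amount, as did the median of all tested genes (0.004 to 0.235). The cause of the other changes was not tested.

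The split of all tested genes was 4254 higher and 4294 lower; it was 5014 and 3563 with upper-quartile scaling, 6619 and 2378 with totals, 5788 and 2489 in limma on log2(FPKM + 1), and 5849 and 2505 with FPKM + 0.1. With upper-quartile scaling the coactivators had 6 genes higher, the SIN3 list 4 lower, the turnover list 6 higher and the list activated by MYC 3 higher. With totals the coactivators had 8 higher and 2 lower, the SIN3 list 3 lower, the turnover list 11 higher and 4 lower, and the list activated by MYC 11 higher. In both FPKM fits the coactivators had 7 higher and 2 lower, the SIN3 list 3 lower, the turnover list 7 higher and 6 lower, the list activated by MYC 6 and 7 higher, and the list repressed by MYC 3 lower. DESeq2 called 2 other E-box factors higher. Leaving out 1 library gave 1 to 2 higher in the list activated by MYC and 3 to 5 in the SIN3 list. List medians that changed sign were those of the coactivators (0.075 with totals, 0.013 and 0.015 in FPKM), the SIN3 list (0.143, 0.055 and 0.063), the turnover list (0.112, 0.045 and 0.046) and the endothelial markers (-0.002 and -0.012 in FPKM). The median of all tested genes moved as well, to 0.235 with totals and to 0.047 in limma on log2(FPKM + 1). The ratio of the group means of MYC plus MYCN was 0.951 in FPKM, 0.861 in TMM-scaled CPM and 0.811 in FPKM over the TMM factor; for the repressing partners it was 1.29, 1.08 and 1.10, and for MAX 1.33, 1.16 and 1.13.

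Library numbers are shared between the groups, but deviations of same-numbered libraries correlated at only -0.0185 to 0.03, so the numbers were not taken as pairs. With a replicate block MXD4 was 0.12 (edgeR adjusted p = 0.0478) and no other call of a member changed. With 3 libraries a group, 3 counts correspond to 0.145 to 0.178 CPM, which limits what can be said of MYCL, MITF and TFEC.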
